A study of Mus musculus with 6 samples.

Results

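The genes described here carry the names of the cytosolic factors of translation initiation (Eif1 to Eif6) and elongation (Eef1 and Eef2), and were measured in mouse CD4+ T cells. They were taken by gene name from the deposited library files: 63 names began with Eif1 to Eif6 or with Eef1 or Eef2, and 4 Eif2ak kinases and 2 pseudogenes were set aside. This left 57 genes of 39171, with 47 Eif and 10 Eef names. The names also cover inhibitors and modifying enzymes of these factors, and Eif4a3 of the exon junction complex. The RNA came from splenic CD4+ T cells, isolated with a commercial kit from C57BL/6 mice that the study calls premenopausal. Control mice were untreated, and AngII mice received angiotensin II, the vasoconstrictor peptide of the renin-angiotensin system, at 800 ng/kg/min from an osmotic minipump for 14 days. Both groups were 10 weeks old at the start and held 3 mice each, with 1 library per mouse. Whether the untreated mice carried a pump is not given in the sources used here.

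Translation begins when initiation factors bring the initiator tRNA and the small ribosomal subunit to the capped end of an mRNA, from where the complex scans to a start codon. The cap is bound by eIF4E, which the binding proteins 4E-BP hold back until mTORC1 phosphorylates them, while eIF2 delivers the initiator tRNA and is switched off by stress kinases. Elongation factors then bring aminoacyl-tRNAs to the ribosome (eEF1) and move it along the message (eEF2). Resting T cells translate little and raise these factors steeply on activation.

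The summed FPKM of a library ran from 613674 to 717286, which does not measure its depth. FPKM is fragments per kilobase of transcript, scaled to the mapped fragments of the library. The files hold no counts, so the depth behind a value is unknown. Of 10 markers of CD4 T cells, all were above 1 FPKM in each library. Their summed FPKM was 5580, 5469 and 4661 for Control replicates 1, 2 and 3 and 4645, 4820 and 5286 in AngII. Markers of other spleen cells were also detected, and none on their lists was at 0 in all 6 libraries. At 1 FPKM or more in each library were 8 of 8 monocyte and macrophage markers and 6 of 6 B cell markers. Only 3 of 8 granulocyte, 2 of 5 dendritic cell and 1 of 5 stromal and endothelial markers were. The summed FPKM of 5 erythroid markers was 255 to 421 in Control and 136 to 613 in AngII. The summed FPKM of 8 monocyte and macrophage markers was 1050 to 1833 in Control and 1301 to 2638 in AngII, that of 8 granulocyte markers was 8.07 to 42.1 and 24.0 to 75.5, and that of 6 B cell markers was 35.3 to 109 and 33.6 to 107. In such bulk libraries, fewer cells of a type and less RNA per cell cannot be told apart.

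The factors spanned a wide range of levels. Of the 57 genes, 53 had a mean of at least 1 FPKM over the 6 libraries and were tested, 50 reached 10 FPKM and 18 reached 100 FPKM. Among those tested, the mean level ran from 3.69 FPKM for Eif5a2, a second eIF5A gene, to 1699 FPKM for Eef2, the ribosomal translocase, a ratio of 461. FPKM is corrected for transcript length, so levels can be set side by side between genes. The 4 genes below the filter were Eef1a1 and Eef1a2, listed at 0 in all 6 libraries, Eif2s3y at a mean of 0.0886 FPKM and Eif3j2 at 0.114. All 53 tested genes were above 1 FPKM in the mean of either group, so none entered the test through 1 group alone. Together the 57 genes summed to 8864, 8885 and 7996 FPKM across Control replicates 1, 2 and 3. In AngII they summed to 8049, 8447 and 8419.5 FPKM. Control replicate 3 and AngII replicate 1 were the lowest of their groups. These sums in effect leave out Eef1a1, whose listed 0 is no measured level, as described below.

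**Figure D1:**
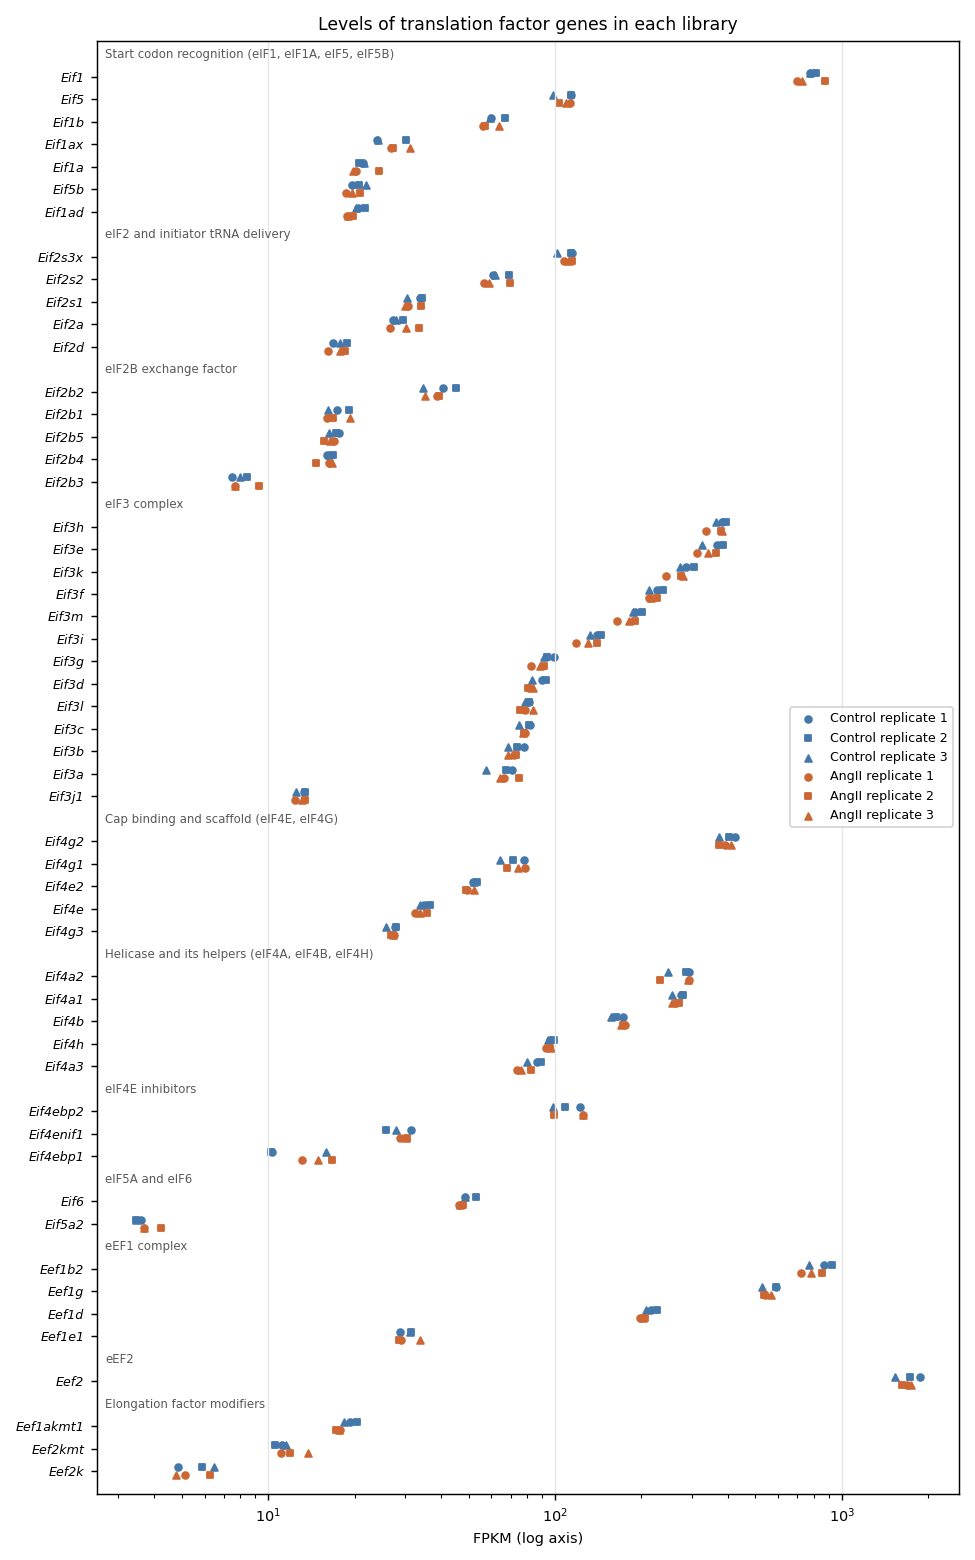
FPKM of the 53 tested translation factor genes (rows, grouped by role) in each library, on a log axis, with 3 Control libraries in blue and 3 AngII libraries in orange. Genes differ by a ratio of up to 461 in mean level, while the libraries of both groups lie close together within each row.

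No translation factor gene was called different between AngII and Control. In limma on log2(FPKM + 1), with Benjamini-Hochberg adjustment over all 11842 genes tested, 0 of 53 passed an adjusted p of 0.05, where 0.0338% of all tested genes passed. The lowest adjusted p among the 53 was 0.9999, and 0 had an unadjusted p under 0.05, against 1.76% of all genes. The log2 fold change (AngII minus Control) of 52 of the 53 lay between -0.14 (Eif4a3) and 0.13 (Eef2kmt), and that of Eif4ebp1 was 0.29. The 95% interval lay within 0.25 of 0 on both sides for 27 of the 53, so for the other 26 a difference of that size was not excluded. The median interval reached 0.183 to either side, against 0.263 for all genes tested. The median log2 fold change was -0.038 for the 53 and -0.004 for all genes. For the 53 it was -0.013 without Control replicate 2, -0.066 without Control replicate 3, -0.006 with quantile normalization and -0.064 with library weights.

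More of the factors had a lower than a higher mean in AngII, and the share among all tested genes depended on their level. A log2 fold change below 0 was seen for 37 of 53 (69.8%), where 52% of all tested genes had one. With quantile normalization it was seen for 29 of 53 (54.7%), against 50.1% of all genes. With library weights it was seen for 41 of 53 (77.4%), against 50.5%. Among members at 100 FPKM or more, 77.8% of 18 were lower, with a median of -0.04. Among all 801 tested genes at that level, 76.9% were lower, with a median of -0.06. At 10 FPKM or more, 72.0% of 50 members were lower, with a median of -0.04, against 58.2% of 6703 genes, with a median of -0.02. The groups did not overlap for 6 of the 53 (11.3%), where 5.84% of all tested genes did not overlap. Of these 6, Eef1akmt1, Eif1ad, Eef1d, Eif3g and Eif6 were lower in AngII (background 3.48%), and Eif5a2, named after its values were seen, was higher (2.36%). The authors' deposited table lists 55 of the 57 genes singly and tested 51 of them, with p-values from 0.11 to 0.99855 and a q-value of 0.999918 or more for each.

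**Figure D2:**
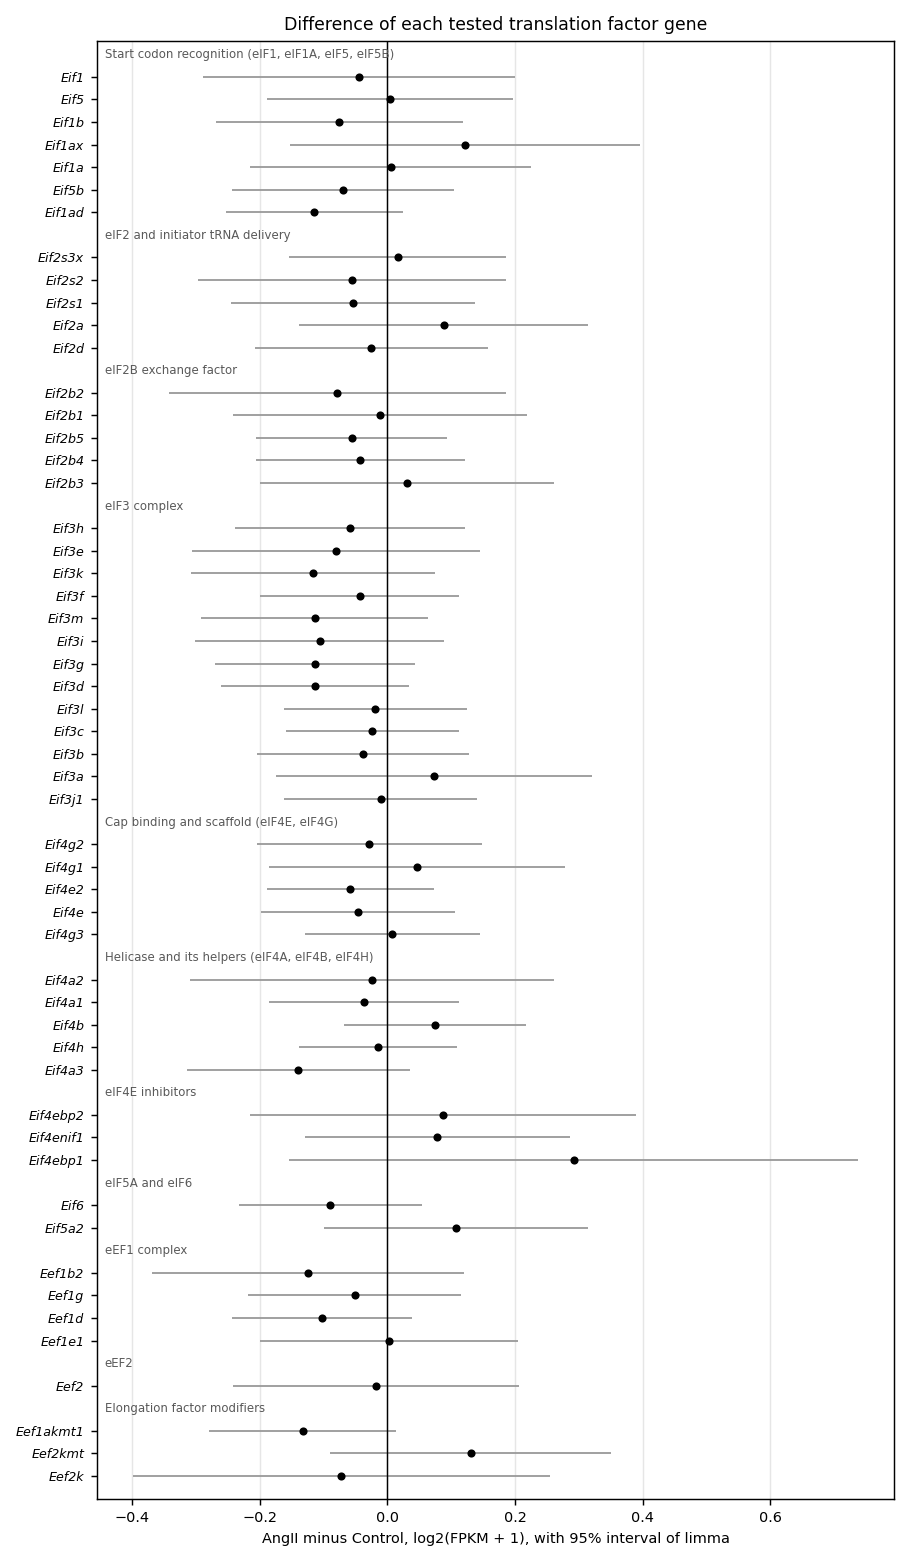
Log2 fold change (AngII minus Control on log2(FPKM + 1), x axis) of each of the 53 tested translation factor genes, grouped by role, with points for the estimate and bars for the 95% interval of limma. Every interval crosses 0, and Eif4ebp1, at 0.29, has the largest estimate and the widest interval.

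Among the factors that recognise the start codon, Eif1 was the most abundant. The eIF1 protein keeps the scanning ribosome open until an AUG is met. Eif1 was at 772, 815 and 775 FPKM across Control replicates 1, 2 and 3 and at 696, 877 and 728 FPKM in AngII. AngII held both the highest and the lowest library, and the log2 fold change was -0.04 (SE 0.10). Its paralog Eif1b was 11.4 to 15.4 times lower in each library. Eif1ad, which encodes a protein with an eIF1A-like domain, was at 20.5, 21.7 and 20.2 FPKM in Control and at 18.7, 19.7 and 18.9 FPKM in AngII. All 3 AngII values lay under the Control values, by a log2 fold change of -0.11 (SE 0.057) that did not pass limma. Eif5, Eif1ax, Eif1a, Eif5b and Eif1b had mean levels from 20.2 to 108.5 FPKM and overlapping groups. Eif1a and Eif1ax are near-identical copies, so how the authors' pipeline divided reads between them is uncertain.

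The subunits of eIF2, the carrier of the initiator tRNA, differed from each other in level. Eif2s1, the alpha subunit phosphorylated by the stress kinases, was at 33.8, 34.4 and 30.4 FPKM in Control and at 30.8, 34.1 and 30.01 FPKM in AngII. The ranges of its groups coincided almost fully. Eif2s3x, the X-linked gamma subunit, was at 115, 114 and 101 FPKM in Control and at 107, 115 and 112 FPKM in AngII. It made up 53.2% ± 1.42 of the summed FPKM of the 3 eIF2 subunits in Control and 54.4% ± 1.69 in AngII (SD, n = 3). Eif2s3y, its Y-linked copy and a marker of male cells, was at 0, 0.0775 and 0.0711 FPKM in Control and at 0.0725, 0 and 0.311 FPKM in AngII. No library exceeded 1 FPKM. Eif2s2, the beta subunit, was at 60.7, 69.1 and 61.9 FPKM in Control and at 56.5, 69.6 and 58.8 FPKM in AngII, with AngII holding both extremes. Eif2a, an alternative initiator tRNA factor that is no subunit of eIF2, was at 27.2, 29.4 and 27.9 FPKM in Control and at 26.6, 33.5 and 30.3 FPKM in AngII. Its highest and lowest libraries were both AngII.

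The 5 subunits of eIF2B, which recharges eIF2 with GTP, lay between 8.08 FPKM (Eif2b3) and 39.0 FPKM (Eif2b2) in the mean. Eif2b2 was at 40.7, 45.3 and 34.7 FPKM in Control and at 38.9, 39.5 and 35.2 FPKM in AngII. Eif2b5, the catalytic subunit, was at 17.6, 17.2 and 16.3 FPKM in Control and at 16.9, 15.6 and 16.4 FPKM in AngII. Neither gene separated the groups, with log2 fold changes of -0.08 and -0.06.

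The eIF3 complex, the scaffold that holds the small ribosomal subunit during initiation, was the role with the most members. Of 14 genes, 13 were tested and 0 passed limma. The mean was lower in AngII for 12 of the 13 and higher for Eif3a. The median log2 fold change was -0.06, with a range from -0.12 (Eif3k) to 0.07 (Eif3a). A log2 fold change below 0 was also seen for 52% of all tested genes. Among 78 tested cytosolic ribosomal protein genes it was seen for 98.7%, with a median of -0.12. Eif3a was lower, at -0.02, without Control replicate 3 and with library weights. With quantile normalization 9 of 13 were lower and the median was -0.01, and with 1 library left out 10 to 13 were lower. Eif3h, the most abundant, was at 381, 396 and 363.2 FPKM in Control and at 337, 378 and 382 FPKM in AngII. Only AngII replicate 1 lay below the Control range. Eif3d, which can itself bind the cap, was at 89.9, 92.7 and 83.3 FPKM in Control and at 81.0, 80.6 and 83.6 FPKM in AngII. Its groups overlapped by 1 AngII library. Eif3g (ENSMUSG00000070319, chromosome 9, 20894349 to 20898623 in GRCm38), a subunit with an RNA-binding domain, was at 99.1, 93.8 and 91.4 FPKM in Control and at 82.3, 91.3 and 89.0 FPKM in AngII. The groups did not overlap, but Control replicate 3 and AngII replicate 2 were almost equal (log2 fold change -0.11, SE 0.064).

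The same libraries were low for most eIF3 subunits. Control replicate 3 was the lowest Control library for 13 of 13 subunits, where it was the lowest for 42.6% of all tested genes. AngII replicate 1 was the lowest AngII library for 8 of 13, against 38.0% of all genes. The 78 tested cytosolic ribosomal protein genes were also lowest in Control replicate 3 and AngII replicate 1 of their groups, though AngII replicates 2 and 3 stood in another order than for eIF3. Their median deviation from the mean of the 6 libraries was 0.096, 0.154 and -0.065 in Control and -0.170, -0.022 and 0.014 in AngII, on the log2 scale. The same medians over the 13 eIF3 subunits were 0.056, 0.090 and -0.036 in Control and -0.070, 0.022 and -0.031 in AngII. Control replicate 3 and AngII replicate 1 also had the lowest summed CD4 T cell markers of their groups. These 2 libraries had the highest summed megakaryocyte and platelet markers of their groups. Over 5 such markers the sums were 77.8, 91.7 and 242 FPKM in Control and 204, 152 and 182 FPKM in AngII. No other marker list was highest in both libraries. The summed FPKM of 10 immediate early and dissociation stress genes was 3620, 3900 and 2275 in Control and 2113, 3316 and 2404 in AngII. That of 5 proliferation genes was 172, 182.0 and 163 in Control and 149, 183 and 160.3 in AngII. Within each group the sums of the stress genes and of the proliferation genes stood in the same library order as the eIF3 median. The sum of the CD4 T cell markers shared only the lowest library with it. Abundant genes such as Junb and Pcna weigh most in these 2 lists. In Control, Cdk1, Atf3, Hspa1a and Hspa1b were highest in replicate 3, where eIF3 was lowest, while the other genes of both lists were not. In AngII, Hspa1a and Hspa1b were lowest in replicate 2, where eIF3 was highest, and Egr1 and Ier2 were highest in replicate 3. The other genes of both lists were highest in AngII replicate 2. The part of cell makeup, of these stress genes and of proliferation in the eIF3 values was not tested.

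**Figure D3:**
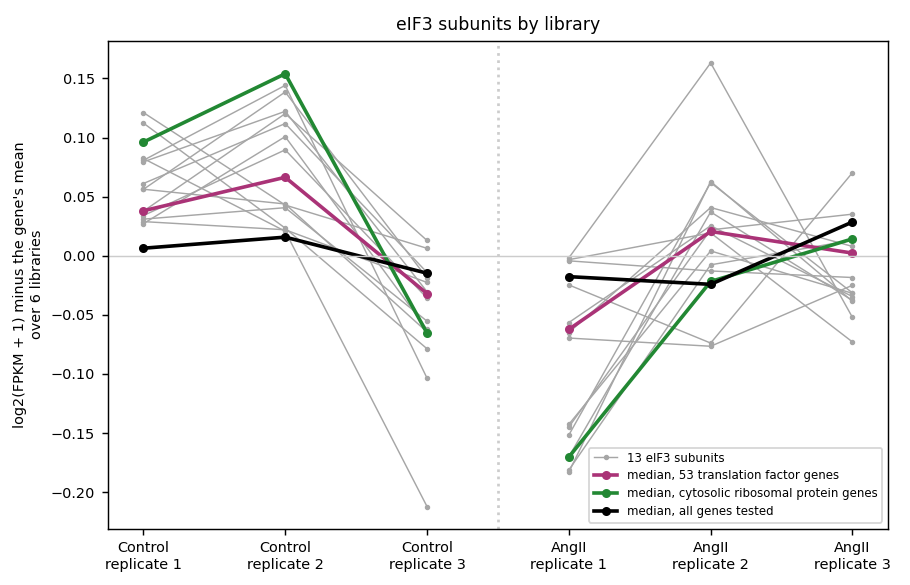
Deviation of log2(FPKM + 1) from each gene's mean over the 6 libraries (y axis) by library (x axis), with thin gray lines for the 13 tested eIF3 subunits and thick lines for the medians of 53 translation factor genes, 78 cytosolic ribosomal protein genes and all 11842 genes tested. Lines join the values of a gene within a group and do not mean an order in time, and the factors and ribosomal protein genes are high in Control replicates 1 and 2 and low in Control replicate 3 and AngII replicate 1.

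Subunit levels within eIF3 were unequal, and the proportions differed little between libraries. Eif3h and Eif3e held 18.4% and 17.2% of the summed FPKM of the complex, and Eif3j1, a loosely bound subunit, held 0.644%. The ratio of Eif3h to Eif3j1 lay between 27.1 and 29.5 in all 6 libraries. Eif3a, the largest core subunit, held 3.14% ± 0.211 in Control and 3.47% ± 0.236 in AngII (SD, n = 3). Eif3k held 13.8% ± 0.194 and 13.4% ± 0.404.

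Promoter windows were read to see what the factors share in sequence. RefSeq windows (GRCm38, 250 bases before to 50 from the annotated start, 300 in all) were matched by symbol for 45 of the 57 genes. A gene can have several annotated starts, and it counted for a feature if any of its windows held it. Genes with more windows thus had more chances to count, and the shares below were not corrected for this. Transcripts of the translation machinery often begin with a terminal oligopyrimidine tract (TOP), a C followed by further C or T, which makes their translation depend on mTORC1. A C at an annotated start followed by at least 4 C or T was found in 2 of 45 members (4.44%), Eif3f and Eif2s3x, where 3.07% of tested genes with a window had one. Allowing the tract to begin within 10 bases of the start, 14 of 45 members (31.1%) and 37.6% of tested genes had one. Both counts rest on annotated starts, which were not checked against the transcripts of these cells. The 12 members without a window, among them Eef1d, Eef1g, Eif3e and Eif3h, could not be read. The annotated starts of both members are shown with the tract in capitals, since these were the only members with a TOP at the annotated base.
Eif3f (chr7:108934405-108934434, plus strand): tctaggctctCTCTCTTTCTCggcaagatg
Eif2s3x (chrX:94212632-94212661, minus strand): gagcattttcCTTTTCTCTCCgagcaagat
Their log2 fold changes were -0.04 and 0.02, and neither passed limma. That of Eif3f was 0.005 with quantile normalization.

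Further motifs were chosen after the windows were seen. The E-box CACGTG, a palindrome bound by factors such as MYC, was in at least 1 window of 11 of 45 members (24.4%). Of tested genes with a window 12.1% held it, and of all genes with a window 8.09%. The motif CCGGAAGT, bound by ETS factors and searched on both strands, was in 7 of 45 (15.6%), against 10.1% and 4.31%. The cAMP response element TGACGTCA, also a palindrome, was in 1 of 45 members, Eef2, against 3.66% and 2.03%. A selection of the matching windows is shown with the motif in capitals. The first 4 hold the E-box, followed by the ETS motif beside the starts of Eef1b2 and Eif4e2. Among the matches not shown are the E-box of Eif4a1, Eif3f and Eif4h and the ETS motif of Eif3d and Eif3l.
Eif3k (chr7:28981915-28981944, minus strand): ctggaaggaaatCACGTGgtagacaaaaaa
Eif3a (chr19:60790654-60790683, minus strand): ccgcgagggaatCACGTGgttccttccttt
Eif4g1 (chr16:20672730-20672759, plus strand): ctctgcgccggtCACGTGgggcgctggctg
Eef2 (chr10:81176576-81176605, plus strand): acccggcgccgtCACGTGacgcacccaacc
Eef1b2 (chr1:63176821-63176850, plus strand): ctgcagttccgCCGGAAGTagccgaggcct
Eif4e2 (chr1:87213905-87213934, plus strand): tcgccagccaaCCGGAAGTagccgggccct
The median log2 fold change was -0.04 for the 11 members with an E-box and -0.03 for the other members with a window that were tested. For the 7 members with CCGGAAGT it was -0.06, against -0.02 for those without. A match says only that these letters are in the window.

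The groups overlapped for all 5 cap-binding and scaffold genes. Eif4e, the cap-binding protein, was at 34.9, 36.6 and 33.9 FPKM in Control and at 32.5, 35.8 and 33.7 FPKM in AngII. Its libraries overlapped, with a log2 fold change of -0.05 (95% interval -0.20 to 0.11). Eif4e2, a cap-binding homolog that can repress translation, was at 51.6, 53.3 and 52.1 FPKM in Control and at 49.4, 48.9 and 52.4 FPKM in AngII. It exceeded Eif4e in each library, by a ratio of 1.36 to 1.55. Eif4g1, the main scaffold of the cap complex, was at 78.2, 71.6 and 64.2 FPKM in Control and at 78.6, 67.8 and 74.4 FPKM in AngII. Eif4g2, a scaffold that lacks the eIF4E site, was at 423, 405 and 373.9 FPKM in Control and at 393, 373.5 and 411 FPKM in AngII, which is 4.995 to 5.82 times Eif4g1 in each library. In both scaffold genes the libraries of the 2 groups were interleaved. Eif4g3, a further scaffold gene, was at a mean of 27.1 FPKM with a log2 fold change of 0.01.

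The helicase eIF4A, which unwinds mRNA ahead of the ribosome, is encoded by a pair of similar genes at nearly equal levels. Eif4a1 was at 276, 279 and 256 FPKM in Control and at 264, 271 and 255 FPKM in AngII. Eif4a2 was at 293, 287 and 248 FPKM in Control and at 293, 233 and 291 FPKM in AngII, with Control replicate 3 and AngII replicate 2 below the others. The ratio of Eif4a1 to Eif4a2 was 0.982 ± 0.0446 in Control and 0.981 ± 0.158 in AngII (SD, n = 3), and AngII replicate 2 was the highest library at 1.16. The direction of Eif4a1 and Eif4a2 was lower as deposited (log2 fold changes -0.04 and -0.02) and higher with quantile normalization (0.03 and 0.05). Eif4a3, a helicase of the exon junction complex and no cap factor, was at 86.7, 89.6 and 80.0 FPKM in Control and at 73.5, 82.4 and 76.4 FPKM in AngII. It had the lowest log2 fold change of the 53 genes, at -0.14 (95% interval -0.31 to 0.03), and AngII replicate 2 lay within the Control range. The cofactors Eif4b and Eif4h had mean levels of 168.5 and 96.1 FPKM and log2 fold changes of 0.07 and -0.02.

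The inhibitors of eIF4E were the one role with more than 1 tested member in which no gene had a lower mean in AngII. All 3 tested genes had log2 fold changes above 0, also with quantile and median-of-ratios scaling and without each library in turn, and 0 passed limma. Eif4ebp1 (ENSMUSG00000031490, chromosome 8, 27260329 to 27276674 in GRCm38), the binding protein best known as an mTORC1 target, was at 10.3, 10.2 and 15.9 FPKM in Control and at 13.1, 16.6 and 14.9 FPKM in AngII. Control replicates 1 and 2 lay below all AngII libraries, while Control replicate 3 lay among them. The log2 fold change was 0.29 with a 95% interval from -0.15 to 0.74, and it did not pass limma. It was 0.49 without Control replicate 3, 0.20 without Control replicate 1, 0.19 without Control replicate 2 and 0.21 without AngII replicate 2. Eif4ebp2, the more abundant binding protein, was at 122, 108 and 98.6 FPKM in Control and at 125, 99.4 and 125 FPKM in AngII. Its groups overlapped widely, with a log2 fold change of 0.09 (SE 0.12). Eif4enif1, which carries eIF4E into the nucleus, had a log2 fold change of 0.08.

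Set against their target, the binding proteins differed in abundance by an order of magnitude. Eif4ebp2 was at 3.12 ± 0.328 times Eif4e in Control and at 3.45 ± 0.585 times in AngII (SD, n = 3). For Eif4ebp1 these ratios were 0.348 ± 0.105 and 0.436 ± 0.0315. In Control replicates 1 and 2 the Eif4ebp1 ratio was 0.296 and 0.279, and in the other 4 libraries it was between 0.402 and 0.469. One Control library therefore lay at the AngII level.

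**Figure D4:**
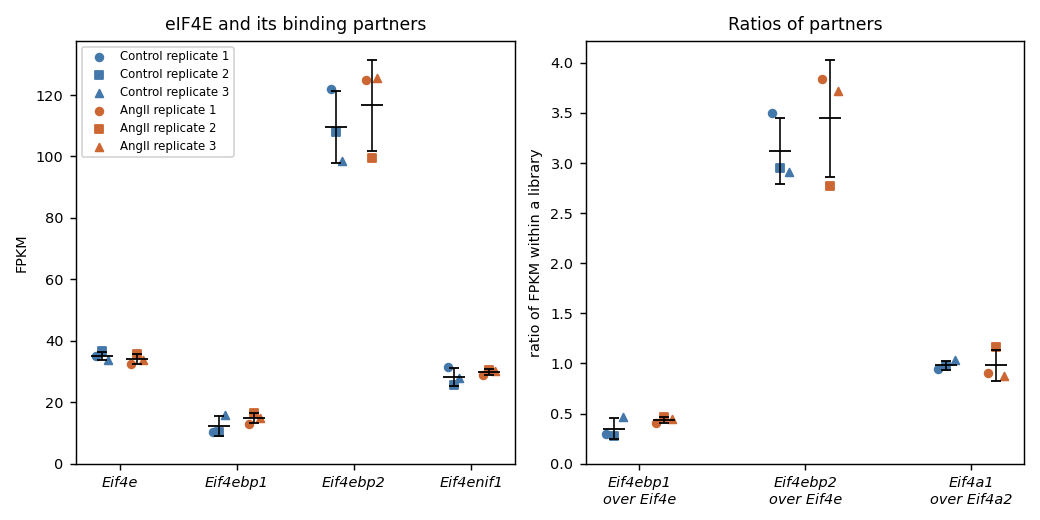
Left, FPKM of the cap-binding gene Eif4e and its inhibitors by group, and right, ratios of FPKM within a library, with points for libraries, horizontal bars for group means and error bars for the SD (n = 3). Eif4ebp1 is at 10.3 and 10.2 FPKM for Control replicates 1 and 2 and between 13.1 and 16.6 FPKM in the other 4 libraries.

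Eif6, which keeps the large ribosomal subunit from joining too early, was at 48.4, 52.9 and 48.4 FPKM in Control and at 46.2, 47.7 and 46.5 FPKM in AngII. The groups did not overlap, with a gap of under 1 FPKM and a log2 fold change of -0.09 (SE 0.058). Eif5a, the hypusine-bearing factor that eases difficult peptide bonds, has no name in the library files and so lay outside the 57 genes. Its identifier, matched to GENCODE M21, was at 404, 428 and 410.3 FPKM in Control and at 359.6, 433 and 388 FPKM in AngII (log2 fold change -0.08). Eif5a2, at a level lower by far, was at 3.61, 3.47 and 3.46 FPKM in Control and at 3.68, 4.23 and 3.69 FPKM in AngII. Its AngII values began just above the Control values (log2 fold change 0.11, SE 0.085). Eif4e3, likewise unnamed in the files, had a mean of 15.4 FPKM and a log2 fold change of -0.09.

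Eef2 and Eef1b2, both elongation factor genes, had the highest mean levels of the 53 tested genes. Eef2 was at 1877, 1727 and 1533 FPKM in Control and at 1689.6, 1623 and 1746 FPKM in AngII. All AngII libraries lay inside the Control range, and the log2 fold change of -0.02 became 0.07 with quantile normalization. Eef1b2, the beta subunit of the factor that recharges eEF1A, was at 869, 926 and 770.0 FPKM in Control and at 719, 853 and 781 FPKM in AngII. Eef1d, the delta subunit of the same complex, was at 217, 227 and 208 FPKM in Control and at 197, 206 and 203 FPKM in AngII. The groups of Eef1d did not overlap, although the highest AngII library came within 2 FPKM of the lowest Control library (log2 fold change -0.10, SE 0.058). Eef1g, the gamma subunit, was at 589, 588 and 528 FPKM in Control and at 539.7, 537 and 566.5 FPKM in AngII. Its groups overlapped, with a log2 fold change of -0.05.

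Eef1a1 encodes the main carrier of aminoacyl-tRNA, one of the most abundant proteins of the cell. It was listed at 0 in all 6 libraries, and the authors' deposited table gives it the status HIDATA, meaning too many fragments to estimate. The 0 therefore cannot be read as a level. Its paralog Eef1a2, a gene of muscle and nerve, was also listed at 0 in all 6 libraries, with the status NOTEST in that table. No statement on eEF1A can be drawn from these files.

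Of the enzymes that modify elongation factors, Eef1akmt1 (ENSMUSG00000021951, chromosome 14, 57549597 to 57571612), a lysine methyltransferase of eEF1A, had the smallest unadjusted p of the 53 genes. It was at 19.4, 20.4 and 18.4 FPKM in Control and at 17.8, 17.3 and 17.7 FPKM in AngII. The groups did not overlap, with a log2 fold change of -0.13 (SE 0.06, 95% interval -0.28 to 0.01, limma adjusted p = 0.9999). Eef2k, the kinase that switches off eEF2, was at 4.83, 5.87 and 6.47 FPKM in Control and at 5.14, 6.28 and 4.76 FPKM in AngII, with overlapping groups and a log2 fold change of -0.07. Eef2kmt, a methyltransferase of eEF2, was at 11.7 FPKM with 0.13.

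Genes of other parts of translation and of its control were also without a call. Of 94 genes on 7 lists around translation, 92 were tested and 0 passed limma, where 0.0338% of all tested genes passed. In AngII 51 were lower and 41 higher, with a median log2 fold change of -0.01. The groups did not overlap for 3 of the 92 that were lower and 1 that was higher, where 3.48% and 2.36% of all tested genes did not. In the list of eIF2 kinases and the integrated stress response (15 tested, 6 lower), Ddit3, the stress transcription factor CHOP, was at 24.3, 23.6 and 21.01 FPKM in Control and at 17.0, 20.7 and 16.3 FPKM in AngII. Its groups did not overlap, and the log2 fold change of -0.34 (SE 0.11) did not pass limma. Atf4, the factor translated when eIF2 is phosphorylated, was at 126, 138 and 115 FPKM in Control and at 104, 132 and 112 FPKM in AngII. Its groups overlapped (log2 fold change -0.13). The kinases Eif2ak1, Eif2ak2, Eif2ak3 and Eif2ak4 had log2 fold changes of 0.02, 0.14, 0.01 and 0.04.

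Among partners of the cap and the poly(A) tail (17 tested, 7 lower), Pabpc1, the poly(A)-binding protein, averaged 1169 ± 84.0 FPKM among Control and 1180 ± 38.6 among AngII libraries (SD, n = 3). The helicase gene Ddx3x had a log2 fold change of 0.13, and Mcts1, a recycling factor, had -0.05. Of the mTORC1, eIF4E and eEF2 kinase list (11 tested, 8 lower), Mtor had -0.01, its inhibitor Tsc2 had -0.08 and the eIF4E kinase Mknk1 had 0.06. Of the hypusine and diphthamide enzymes, which modify eIF5A and eEF2 (9 tested, 6 lower), Dph3 had -0.27 and Dhps had -0.15. Termination and recycling genes (8 tested, 4 lower) included Hbs1l at 0.13 and Trmt112 at -0.11. Mitochondrial translation factors (10 tested, 6 lower) included Tufm at -0.09 and Tsfm at -0.11. Aminoacyl-tRNA synthetases (22 tested, 14 lower) included Farsa at -0.11 and Wars at -0.09. All values in this paragraph after Pabpc1 are log2 fold changes, and none passed limma.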

How the data were processed

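RNA sequencing of 6 splenic CD4+ T cell libraries was used, 3 Control and 3 AngII. Per the submitters' processing notes, the tools were Trimmomatic 0.32, TopHat2 2.1.1 and Cuffdiff, with the build GRCm38.p3. No version of Cuffdiff and no annotation release is stated there. As deposited by the authors, the values are FPKM per library. The authors also deposited a table of their own comparison, from which the p-value, q-value and test status were used, since its conditions carry no group name. That table lists some neighbouring genes together.

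FPKM is no count, so log2(FPKM + 1) was tested with limma 3.58.1 in R 4.3.3 (eBayes with trend, two-sided) for genes averaging 1 FPKM or more. The threshold was 0.05 for p-values adjusted by Benjamini-Hochberg. The fit was tested on simulated data with changes larger than any seen among the factor genes. That check says nothing on changes of their size. Fold changes on this scale understate those of low genes. Symbols came from GENCODE M21 for 37605 identifiers. Coordinates are GRCm38. Promoter windows came from RefSeq (GRCm38). Tables and plots were made with Python 3.11.15, pandas 2.3.3 and matplotlib 3.10.9.

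The members and gene lists were chosen with earlier results of these data known. Values in all libraries are given for a set of core factors, for the gene of smallest p and of highest level in each role, and for the 6 genes of smallest p. Of each list, the 2 genes of smallest p are named, with the Eif2ak kinases, Atf4, Pabpc1 and Mtor.
Alternatives changed the pseudocount, filter, scaling, variance model, library weights or threshold, added the replicate number as a block, or left out each library.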

Additional observations from a re-analysis of the deposited data

How the results depend on the processing

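No translation factor gene passed limma in any alternative run: 0 of 53 (0 of 52 with a mean of at least 5 FPKM) with other pseudocounts, filters, scalings, variance models, library weights, a threshold of 0.1 or 1 library left out. At an unadjusted p under 0.05 the count was 16 of 53 (30.2%) with library weights, where 17.3% of all genes had one, 4 (7.55%) without Control replicate 3, against 3.51%, and 1 (1.89%) without AngII replicate 2, against 7.75%. Over all genes, the count past the threshold was 4, and 7 without a filter. With 1 library left out it lay between 4 and 9 (8 without Control replicate 1, 7 without Control replicate 3 and 9 without AngII replicate 3). With 1 library left out the median log2 fold change of the factors lay between -0.066 and -0.013, and the number lower between 31 and 41. With quantile normalization 8 of the 53 turned direction, all to higher: Eif4g2 (0.015), Eif4a2 (0.049), Eif4a1 (0.033), Eef2 (0.069), Eif4h (0.013), Eif3f (0.0050), Eif3l (0.018) and Eif3c (0.0064). With library weights 8 turned: Eif4a2 (0.027) and Eif3l (0.0049) to higher, and Eif2s3x (-0.034), Eif5 (-0.014), Eif1a (-0.056), Eif2b3 (-0.080), Eif3a (-0.021) and Eif4g3 (-0.013) to lower. The cause was not tested. With 1 library left out 2 to 9 of the 53 turned, and among the genes chosen by the naming rule these were Eif1 (range -0.15 to 0.021), Eif2s3x (-0.042 to 0.047), Eif2b2 (-0.18 to 0.0084), Eif4g2 (-0.077 to 0.012), Eif4g1 (-0.026 to 0.11), Eif4a2 (-0.10 to 0.084) and Eef2 (-0.10 to 0.051). With the replicate number as a block, 3 genes of all tested and 0 of the factors passed. Libraries of the same number did not deviate together (r = -0.080, -0.023 and -0.035 over genes). The labels state no pairing of the mice, and these correlations cannot decide whether there was one. Depth is unknown, which limits the lowest genes most.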
